A study of Saccharomyces cerevisiae with 6 samples.

Results

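The genes described here make the amino acids that baker's yeast derives from aspartate by way of homoserine and threonine, together with asparagine. They are HOM3 (YER052C), HOM2 (YDR158W), HOM6 (YJR139C), THR1 (YHR025W), THR4 (YCR053W), ASN1 (YPR145W) and ASN2 (YGR124W), chosen by the systematic name of the open reading frame that each probe set reads. All 7 were measured, each by 1 probe set, out of 5657 genes on 5705 probe sets. By the suffix of the probe set names, no member was read by a type that can share signal with other genes.

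Messenger RNA was measured on Affymetrix yeast arrays in 2 groups of the wild-type haploid strain CEN.PK 113-7D, grown aerobically at 30 °C in baffled shake flasks. The cultures with BSA (n = 3) had BSA added, and the control cultures without BSA (n = 3) did not. Both groups share the strain, the genotype and the growth protocol, and the labels call the 3 cultures of a group biological replicates. BSA usually stands for bovine serum albumin, which the labels do not spell out. How much BSA was added, and whether the medium held amino acids, is not stated in the labels used here. The labels differ on when cells were taken: the protocol gives 48 h, and the design text an early phase of growth on glucose.

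In yeast, aspartate is phosphorylated by aspartate kinase and reduced in 2 steps to homoserine. Homoserine then either is phosphorylated and turned into threonine, or is acetylated and turned into methionine. Asparagine arises separately, when asparagine synthetase transfers an amide group from glutamine to aspartate. Many genes of amino acid synthesis are activated by Gcn4, a transcription factor whose own translation is raised when amino acids run short. Threonine inhibits aspartate kinase, the entry enzyme of the homoserine branch.

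With BSA, the opening gene of the homoserine branch, HOM3, and the asparagine synthetase gene ASN2 were higher, while HOM2, HOM6, THR1 and THR4, which carry the route on to threonine, were lower. The second asparagine synthetase gene, ASN1, was not called. Of the 7 genes, 6 passed a Benjamini-Hochberg adjusted p of 0.05 in limma, against 75.4% of all genes, so their number is close to the background. In the higher direction there were 2 of 7, against 28.3% of all genes, and in the lower direction 4 of 7, against 47.1%. No member passed the test with a change of at least 2-fold (0 of 7, against 9.00% of all genes). The groups did not overlap in 6 of the 7 genes, against 79.5% of all genes. The median log2 difference (BSA minus no BSA) of the 7 genes was -0.18, with a range of -0.56 to 0.92, beside a median of -0.13 over all genes. Equal masses of RNA from whole cultures were labelled, so the values are amounts relative to total RNA. A change in transcripts per cell cannot be told apart from a change in total RNA per cell. Nor can it be told apart from a change in the share of cells that express a gene.

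**Figure D1:**
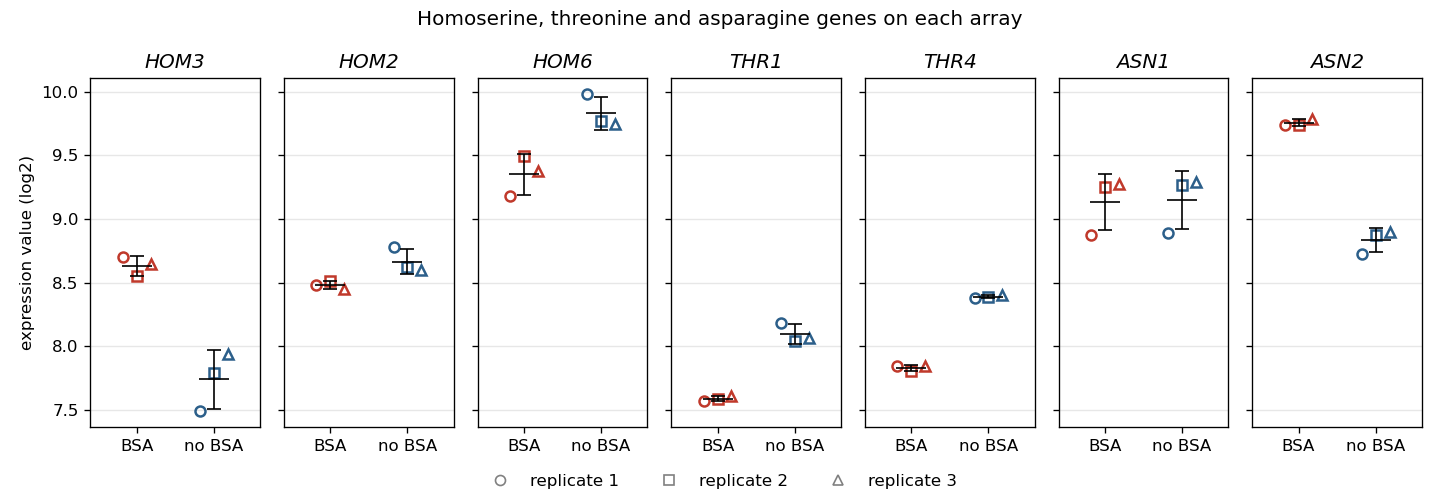
Deposited expression values (log2, vertical axis) of the 7 genes on each of the 6 arrays. Red symbols are cultures with BSA and blue symbols cultures without BSA, each symbol shape is a replicate number, and the bar with whiskers is the mean ± SD (n = 3). HOM3 and ASN2 lie higher with BSA, HOM2, HOM6, THR1 and THR4 lie lower, and the 2 groups of ASN1 overlap.

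HOM3 encodes aspartate kinase, which commits aspartate to this branch. Its log2 values were 8.70, 8.55 and 8.65 with BSA, against 7.49, 7.79 and 7.94 without BSA. Every culture with BSA lay above every control, and the controls were spread more widely. HOM3 averaged 8.63 ± 0.08 with BSA and 7.74 ± 0.23 without BSA (SD, n = 3 each), a rise of 0.89 ± 0.11 (log2 difference ± SE) or 1.86-fold (limma adjusted p = 0.000206). Without the control array lowest for HOM3, replicate 1, the rise was 0.77, the smallest value among the 6 fits that left out 1 array. Of all 5657 genes, 493 had a higher log2 difference than HOM3.

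HOM2 encodes aspartate-semialdehyde dehydrogenase, the enzyme of the next step. Its log2 values were 8.48, 8.51 and 8.45 with BSA, against 8.78, 8.62 and 8.60 without BSA. The groups did not overlap, but the gap between them was narrow. The fall of HOM2 was the smallest of those called, with a log2 difference of -0.18 ± 0.06 (SE, limma adjusted p = 0.0268) and a 95% confidence interval from -0.33 to -0.04. This lay close to the median of all genes, and relative to that median HOM2 differed by -0.05. The call was lost without BSA replicate 3 (adjusted p = 0.0825), with arrays centred on their medians (adjusted p = 0.0686) and with arrays centred on the median of their deviations from the gene means (adjusted p = 0.48).

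HOM6 encodes homoserine dehydrogenase, which makes homoserine, the branch point between threonine and methionine. Its log2 values were 9.18, 9.50 and 9.38 with BSA, against 9.98, 9.77 and 9.74 without BSA. All cultures with BSA were below all controls, and both groups varied by more than those of HOM2. The means were 9.35 ± 0.16 with BSA and 9.83 ± 0.13 without BSA (SD, n = 3 each), a log2 difference of -0.48 ± 0.10 (SE, limma adjusted p = 0.0027).

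THR1 encodes homoserine kinase, the step that turns homoserine towards threonine. Its log2 values were 7.57, 7.59 and 7.61 with BSA, against 8.18, 8.04 and 8.06 without BSA. The cultures with BSA were nearly equal to each other and far below the controls. THR1 fell by 0.51 ± 0.05 on the log2 scale (difference ± SE), which is 1.42-fold (limma adjusted p = 9.77e-05).

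THR4 encodes threonine synthase, which completes the pathway. Its log2 values were 7.85, 7.80 and 7.84 with BSA, against 8.38, 8.39 and 8.40 without BSA. THR4 had the lowest spread among controls of the 7 genes, with an SD of 0.01, and the largest fall. The log2 difference was -0.56 ± 0.04 (SE), 1.47-fold lower with BSA (limma adjusted p = 2.5e-05). Across the genome 885 genes had a lower log2 difference than THR4, so falls of this size were common.

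**Figure D2:**
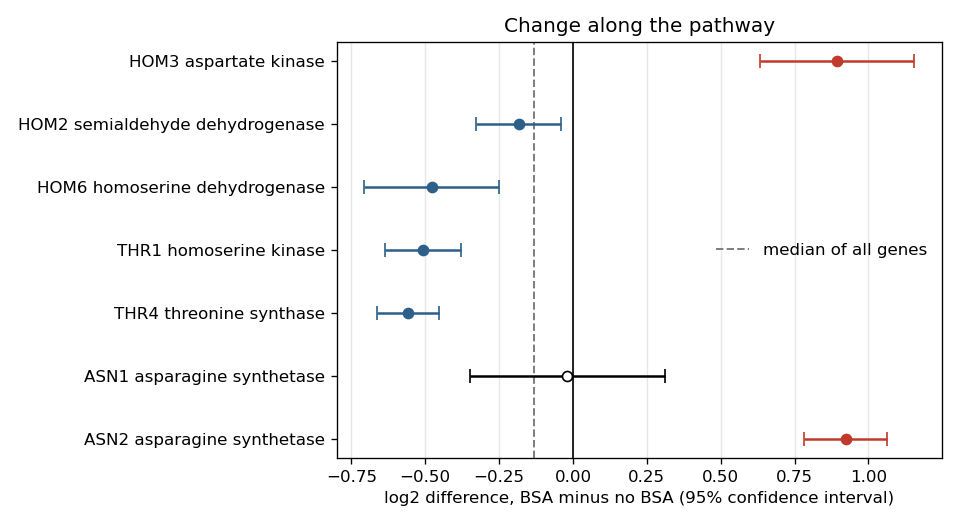
Log2 difference (BSA minus no BSA, horizontal axis) of each gene in the order of the pathway, with the 95% confidence interval of the limma fit (n = 3 per group). Red marks genes called higher, blue genes called lower, the open symbol a gene that was not called, and the dashed line the median of all genes at -0.13. HOM3 stands at 0.89, the steps from HOM2 to THR4 run from -0.18 to -0.56, and ASN2 stands at 0.92 beside ASN1 at -0.02.

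Neighbouring steps were compared by the difference between their changes. The log2 difference was 1.08 ± 0.20 higher for HOM3 than for HOM2 (SE), and the gap between these genes on each array did not overlap between groups (exact permutation test, two-sided p = 0.1, adjusted p = 0.15 over 6 pairs of genes). With 3 arrays against 3, a p of 0.1 is the smallest that this test can give, so no such difference could pass 0.05. The groups did not overlap for 79.5% of all single genes, and the share of all gene pairs without overlap was not counted. Between HOM2 and HOM6 the changes differed by 0.30 ± 0.09 (SE), again with no overlap between groups (exact permutation test, two-sided p = 0.1, adjusted p = 0.15). The next 2 pairs showed no difference in change beyond its error: the change of HOM6 minus that of THR1 was 0.03 ± 0.09 (exact permutation test, p = 0.9, adjusted p = 0.9), and that of THR1 minus THR4 was 0.05 ± 0.05 (exact permutation test, p = 0.4, adjusted p = 0.48). The difference between THR1 and THR4 was 0.093 after quantile normalization and 0.096 after cyclic loess. It was 0.097 without no BSA replicate 1, 0.025 without no BSA replicate 2 and 0.029 without no BSA replicate 3. The sign of the difference between HOM6 and THR1 turned after quantile normalization (-0.07) and without BSA replicate 2 (-0.04).

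ASN1 and ASN2 encode the 2 asparagine synthetases of yeast, which catalyse the same reaction. The log2 values of ASN2 were 9.74, 9.74 and 9.79 with BSA, against 8.73, 8.87 and 8.90 without BSA. The groups were far apart, and the cultures with BSA were close to each other. ASN2 averaged 9.76 ± 0.03 with BSA and 8.83 ± 0.09 without BSA (SD, n = 3 each), a rise of 0.92 ± 0.06 (log2 difference ± SE) or 1.90-fold (limma adjusted p = 1.17e-05). It was the largest change of the 7 genes, and 466 genes of the genome had a higher one.

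The log2 values of ASN1 were 8.88, 9.25 and 9.27 with BSA, against 8.89, 9.27 and 9.29 without BSA. Replicate 1 was low in both groups, and the groups overlapped almost completely. ASN1 averaged 9.13 ± 0.22 with BSA and 9.15 ± 0.23 without BSA (SD, n = 3 each), a log2 difference of -0.02 (limma adjusted p = 0.91). The 95% confidence interval of this fit, which did not pair arrays, ran from -0.35 to 0.31. Changes within it could not be told from none in that fit. With the replicate number as a block, the difference was again -0.02 and was not called (limma adjusted p = 0.746). The sign of this small difference was positive under 3 of 4 other scalings and without some single arrays, in a range of -0.17 to 0.11 over 20 alternatives.

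The log2 difference of ASN2 exceeded that of ASN1 by 0.94 ± 0.14 (SE). On each array, the log2 value of ASN2 minus that of ASN1 was 0.86, 0.49 and 0.52 with BSA, against -0.16, -0.40 and -0.39 without BSA. These gaps did not overlap between groups (exact permutation test, two-sided p = 0.1, adjusted p = 0.15 over 6 pairs). The share of all gene pairs without overlap was not counted. The difference in change stayed between 0.82 and 1.02 in the 6 comparisons that left out 1 array. Each array value is set by its own probes, so these gaps show an unequal change and not which of the transcripts was more abundant. The change of ASN1 minus that of HOM6 was 0.46 ± 0.21 (SE, exact permutation test, two-sided p = 0.1, adjusted p = 0.15), and without no BSA replicate 1 it was 0.25.

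Over all 6 arrays, with each gene centred on its own mean, the profiles of THR1 and THR4 were the closest among the 21 pairs of these genes, with a root mean square distance of 0.06 (log2). HOM3 and ASN2, which lie in different branches, followed each other with a distance of 0.09, as did HOM6 and THR1 with 0.09. The widest distances were those of ASN2 from THR4 and of HOM3 from THR4, both 0.74. Outside the pathway, the genes most like ASN2 were PCL9, with a distance of 0.03, GIP1, with 0.04, and YMR114C, with 0.04. The genes most like THR4 were NUP57 and CLP1, both with a distance of 0.01, and PAM17, with 0.02. These distances are given as a description over 6 arrays, and they rest mostly on the size of the difference between groups.

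**Figure D3:**
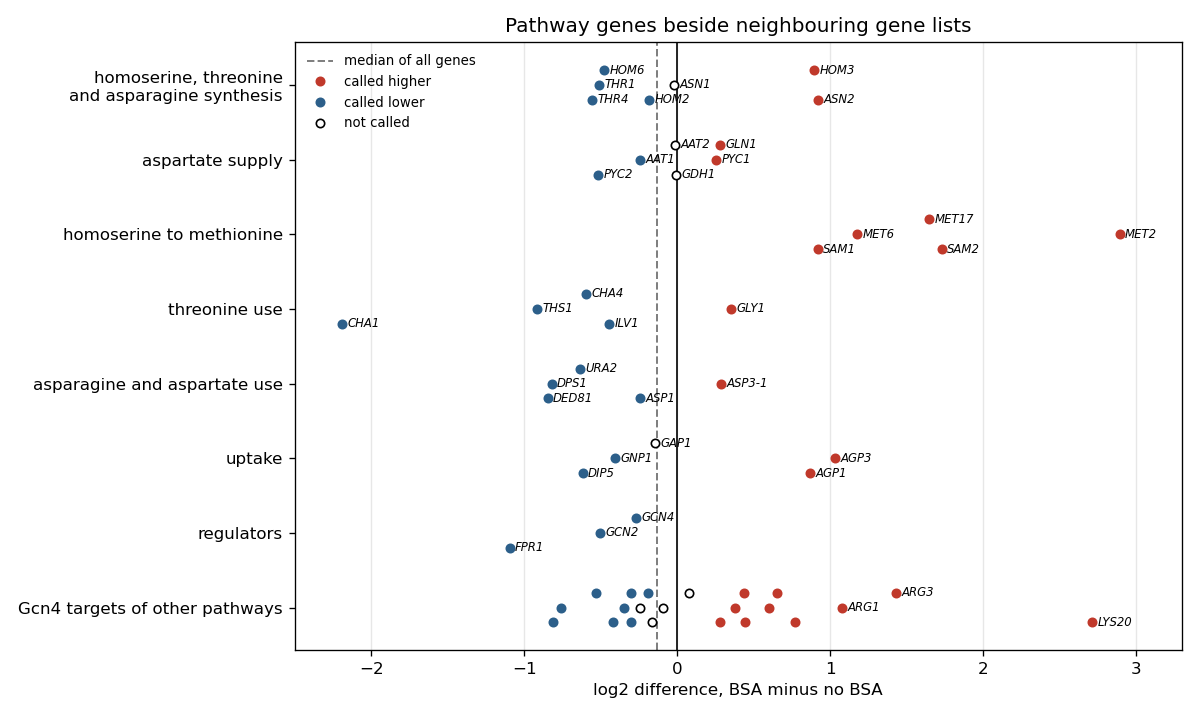
Log2 difference (BSA minus no BSA, horizontal axis) of the 7 pathway genes and of the measured genes in 7 neighbouring lists, 1 point per gene. Red points were called higher, blue points lower and open points were not called, and the dashed line is the median of all genes at -0.13. The methionine branch lies wholly to the right, with MET2 at 2.89, and CHA1 lies farthest to the left at -2.19.

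Homoserine is also consumed by the methionine branch, and there all 5 listed genes rose, against 28.3% of all genes, with a median log2 difference of 1.65 beside -0.13 for all genes. MET2, the homoserine acetyltransferase that draws on the same homoserine as THR1, had log2 values of 9.25, 9.72 and 9.46 with BSA, against 6.12, 6.75 and 6.88 without BSA. No control came near any culture with BSA. MET2 rose by 2.89 ± 0.20 (SE), or 7.42-fold (limma adjusted p = 1.54e-05), whereas THR1 fell by 0.51. Each MET2 control value lay below the lower quartile of its own array, so the size of this rise rests on a dim signal. MET17, which turns the acetylated homoserine into homocysteine, rose by 1.65 ± 0.25, and MET6, methionine synthase, by 1.18 ± 0.11. The S-adenosylmethionine synthetase genes SAM1 and SAM2 rose by 0.92 ± 0.05 and 1.73 ± 0.24.

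Of 5 genes listed for threonine use, among them the activator gene CHA4, 4 fell, against 47.1% of all genes, and 1 rose, against 28.3%. Their median log2 difference was -0.59. CHA1, the deaminase that breaks down serine and threonine, had log2 values of 5.61, 5.67 and 5.63 with BSA, against 7.59, 7.99 and 7.91 without BSA. Its values with BSA lay below the lower quartile of every array, and the size of its change rests on that dim signal: CHA1 fell by 2.19 ± 0.10 on the log2 scale (SE). CHA4, the activator of CHA1, changed by -0.59 ± 0.05 and ILV1, the threonine deaminase that opens isoleucine synthesis, by -0.44 ± 0.06. The CHA4 values with BSA also lay below the lower quartile of every array. THS1, the threonyl-tRNA synthetase, changed by -0.91 ± 0.06. GLY1, the aldolase that makes glycine from threonine, rose by 0.35 ± 0.08.

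Of the 8 listed genes that use asparagine or aspartate, 5 were measured by a probe set of their own name, of which 4 fell (47.1% of all genes did) and 1 rose (28.3% of all genes did), with a median of -0.63. The asparaginyl-tRNA and aspartyl-tRNA synthetase genes DED81 and DPS1 changed by -0.85 ± 0.05 and -0.82 ± 0.05 (log2 difference ± SE). URA2, which uses aspartate to start pyrimidine synthesis, changed by -0.63 ± 0.12. The asparaginase gene ASP1 changed by -0.24 ± 0.06, and centring arrays by their median deviation ended its call (adjusted p = 0.0823) as did cyclic loess (adjusted p = 0.161). The probe set assigned to ASP3-1, one of several near-identical asparaginase gene copies, rose by 0.29 ± 0.06, and it is of a type that can share signal between copies.

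The supply of aspartate gave no common direction. Of 6 genes, 2 rose, against 28.3% of all genes, and 2 fell, against 47.1%. Thus 4 of 6 were called, against 75.4% of all genes, with a median log2 difference of -0.01. The aspartate aminotransferase genes AAT1 (mitochondrial) and AAT2 (cytosolic) had log2 differences of -0.24 ± 0.06 (SE, limma adjusted p = 0.00841) and -0.01 ± 0.10 (limma adjusted p = 0.926), and the call of AAT1 was lost under 3 of 4 other scalings (adjusted p up to 0.449). Of the pyruvate carboxylase genes, which make oxaloacetate, PYC2 changed by -0.52 ± 0.05 and PYC1 by 0.25 ± 0.07. GLN1, the glutamine synthetase that supplies the amide group, changed by 0.28 ± 0.08, and GDH1, a glutamate dehydrogenase, by -0.01 ± 0.15, which did not pass. The calls of PYC1 and GLN1 were lost without no BSA replicate 2 (adjusted p = 0.0577 and 0.0631) or no BSA replicate 3 (adjusted p = 0.0539 and 0.0607), and that of GLN1 also without BSA replicate 3 (adjusted p = 0.0583).

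Among 5 permease genes for these amino acids, 2 rose, against 28.3% of all genes, and 2 fell, against 47.1%. The 4 of 5 called are close to the 75.4% of all genes. AGP1, a permease of broad range that takes up threonine and asparagine, had log2 values of 9.61, 9.84 and 9.86 with BSA, against 8.58, 9.06 and 9.06 without BSA, and rose by 0.87 ± 0.14 (SE). AGP3 rose by 1.03 ± 0.17, with control values below the lower quartile of every array. GNP1, which carries glutamine, threonine and asparagine, changed by -0.41 ± 0.08 and DIP5, the permease of aspartate and glutamate, by -0.62 ± 0.08. Both of these had dim signals, below the lower quartile of every array. GAP1, the general amino acid permease, had a log2 difference of -0.14 ± 0.16 and did not pass (limma adjusted p = 0.435).

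All 3 regulators on the list were called lower, as were 47.1% of all genes. GCN4 had log2 values of 11.06, 11.23 and 11.23 with BSA, against 11.44, 11.44 and 11.45 without BSA, a difference of -0.27 ± 0.06 (SE, limma adjusted p = 0.00394). Relative to the median of all genes, GCN4 differed by -0.14, and under the 4 other scalings its difference ran from -0.37 to -0.14. Its transcript is a limited measure of the factor, since Gcn4 is known to be controlled mainly in translation. GCN2, the kinase that senses uncharged tRNA, changed by -0.50 ± 0.05, and by -0.37 relative to the median of all genes. Under the 4 other scalings the GCN2 difference ran from -0.46 to -0.31. Its values with BSA were dim, below the lower quartile of every array. FPR1, a proline isomerase known to bind aspartate kinase and to take part in its inhibition by threonine, changed by -1.09 ± 0.07, or 2.14-fold lower.

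Genes of other amino acid pathways, listed as targets of Gcn4, were called in both directions. Of 22, 10 rose, against 28.3% of all genes, 8 fell, against 47.1%, and 4 were not called. Their median log2 difference was -0.01. The 18 called genes are 81.8% of the list, near the 75.4% of all genes. LYS20, a homocitrate synthase of lysine synthesis, rose by 2.71 ± 0.14 (SE), the arginine genes ARG3 and ARG1 by 1.43 ± 0.09 and 1.08 ± 0.09, LYS1 by 0.77 ± 0.12 and ARO3 by 0.65 ± 0.05. ARO4, which catalyses the same aromatic step as ARO3, changed by -0.81 ± 0.05, TRP5, tryptophan synthase, by -0.76 ± 0.07 and ILV6, the regulatory subunit of acetolactate synthase, by -0.53 ± 0.07. Calls of ILV3 (0.28), LYS9 (-0.35), SER1 (0.43) and TRP4 (-0.19) were each lost in some fits without 1 array, with adjusted p up to 0.0858, 0.106, 0.0771 and 0.0595. The arrays whose removal ended a call were BSA replicates 1 and 3 for ILV3, BSA replicates 1, 2 and 3 for LYS9, BSA replicates 2 and 3 and no BSA replicates 2 and 3 for SER1, and BSA replicate 2 for TRP4. Under the 4 other scalings, TRP4 never passed, LYS9 passed under 1, and ILV3 and SER1 missed under quantile normalization (adjusted p = 0.152 and 0.0566).

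**Figure D4:**
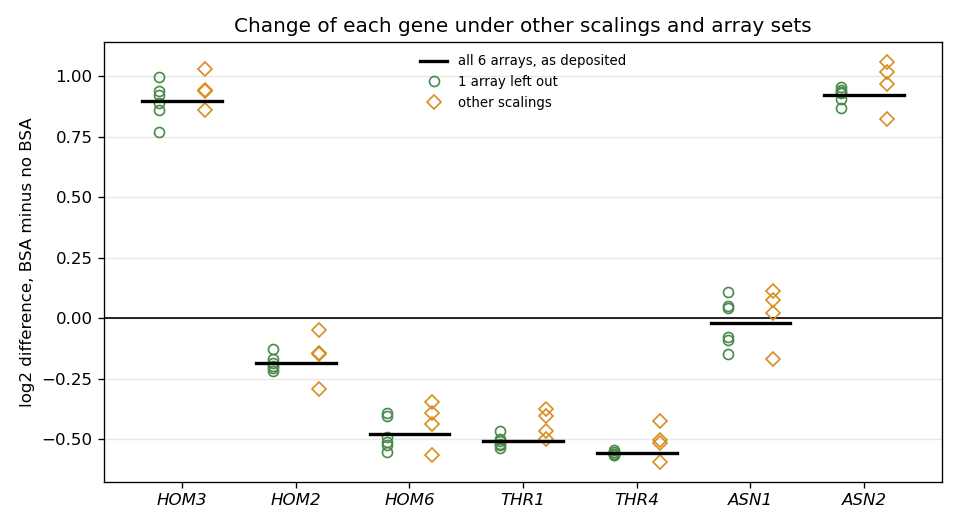
Log2 difference (BSA minus no BSA, vertical axis) of each gene with all arrays as deposited (black line), in the 6 fits without 1 array (green circles) and under 4 other scalings between arrays (orange diamonds). HOM3 and ASN2 lie between 0.77 and 1.06 throughout, HOM6, THR1 and THR4 lie between -0.59 and -0.35, HOM2 comes near 0 under 1 scaling, and ASN1 takes both signs.

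The shift of all genes bears on the smaller changes. Centring arrays by their median deviation removed the shift of -0.13 in the median log2 difference of all genes. The changes relative to the median of all genes as deposited were 1.03 for HOM3, 1.06 for ASN2, -0.35 for HOM6, -0.37 for THR1, -0.43 for THR4 and 0.11 for ASN1. Control replicates 2 and 3 were closer to each other than any other pair of arrays, with an SD of 0.06 over the differences of all genes, against 0.12 to 0.20 for the other pairs within a group. Counted as 1 replicate, they left the calls of all 7 genes as they were. The probe sets of the marker genes URA3, HIS3 and LEU2, which laboratory strains often lack, stood at percentiles 43.4 to 80.0 of the mean levels of all genes. TRP1, the other listed marker, was not among the measured genes.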

How the data were processed

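RNA of 6 cultures, 3 with BSA and 3 without, was hybridised to 1 array each. The authors deposited a log2 value for each probe set. Per the submitters' processing notes, PLIER and R 2.10.1 were used. What each program did, how background was corrected and how arrays were normalized is not given in the sources used here; base 2 follows from the range of values. The deposited annotation pairs probe sets with open reading frames, and symbols came from the gene table of assembly R64, which matched 5646 of 5657 genes.

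For 46 genes with several probe sets the brightest was kept. Genes were fitted with limma 3.58.1 in R 4.3.3 (lmFit and eBayes), with Benjamini-Hochberg adjustment over all genes and a threshold of 0.05. The code of the fit was tested on simulated data. Differences in change between 2 genes were tested by two-sided exact permutation over arrays. The members, pairs, neighbouring lists and alternatives were chosen with earlier results of these data known. All 7 members and every measured gene of the lists could be named, and genes alike in profile were the 3 with the smallest distance to the member with the highest and the lowest difference. Promoter motifs were planned and were not analysed here. Alternatives were the replicate block, other variance priors, array weights, 4 scalings between arrays (quantile, median, median deviation, cyclic loess), filters on dim genes, other probe set rules, leaving out arrays, merged controls and stricter thresholds. No sequencing depth applies to arrays, and their number limits the precision.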

Additional observations from a re-analysis of the deposited data

How the results depend on the processing

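Of 140 values of the 7 genes under 20 alternatives each, 129 kept direction and call. HOM3, HOM6, THR1, THR4 and ASN2 kept theirs in all. HOM2 lost its call with arrays centred on their medians (-0.14) or on the median deviation (-0.050), at an adjusted p of 0.01 (-0.18), and without BSA replicate 3 (range without 1 array -0.22 to -0.13). ASN1, never called, turned sign under both centrings (0.023 and 0.11), after cyclic loess (0.074), with controls 2 and 3 merged (0.047) and without single arrays (-0.15 to 0.11). Members called lower numbered 3 to 4 without 1 array. The change of HOM6 minus THR1 turned after quantile normalization (-0.066) and without single arrays (-0.044 to 0.11). With at least 2-fold required, 0 members were called higher and 0 lower (no log2 difference reached 1, and 6 passed limma without that demand). Over all genes, 509 (9.00%) were then called, 398 higher and 111 lower. Of the 51 measured neighbouring genes, 10 were called, 8 higher and 2 lower. Without the dimmer 50% of genes, which leaves fewer to test, 2232 were called, 1045 higher and 1187 lower. Of the neighbouring genes, 13 were called lower in place of 23, because the others were among the dimmer genes left out. Of all called genes, 37.6% were higher as deposited, against 50.3% with arrays centred on the median deviation and 49.0% after cyclic loess.

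Among values of the neighbouring genes and strain markers, 968 kept direction and call, 42 lost the call, 11 gained it and 17 turned sign, all 17 in 5 genes. AAT2 was 0.10 with array weights, 0.12 and 0.031 with arrays centred on the median deviation and the median, 0.064 after cyclic loess, and -0.080 to 0.10 without 1 array. GDH1 was 0.12, 0.12, 0.033 and 0.086 in the same order, and -0.15 to 0.12 without 1 array. GAP1 was 0.050 after cyclic loess and -0.30 to 0.037 without 1 array, ILV2 was 0.040 with the median deviation, and TRP4 was 0.0034 after cyclic loess. The causes were not tested. Same-numbered arrays had deviations correlated at 0.10, 0.02 and 0.04, so the numbers were not taken as pairs. With the replicate block, 1597 genes were higher and 2669 lower, and HOM2 (adjusted p = 0.0335) and the other members kept their calls.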
